A study of Mus musculus with 8 samples.

Results

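The odorant-binding lipocalins described here are Obp1a, Obp2a, Obp2b, Lcn3 and Lcn4, small secreted carrier proteins of the mouse nose. They were chosen by name from a list of 7 gene symbols. Of these, 5 are rows of the deposited table of 21765 genes. Lcn13 and Lcn14 have no row of their own, and RefSeq lists them as older symbols of Obp2a and Obp2b, so the 7 names cover 5 genes. All 5 passed the filter on low values, a mean of at least 1 TPM (transcripts per 1000000), and were among the 16097 genes tested.

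Polysome-bound RNA of the main olfactory epithelium, the sensory lining of the nose, was sequenced in mice with or without the RNA-binding protein gene Mex3a. WT mice were Mex3a flox/flox or Mex3a flox/+ without Cre. Conditional knockout (cKO) mice were Mex3a flox/flox and carried a Cre allele. All tissue received 100 µg/mL cycloheximide, which holds ribosomes on mRNA, at dissection. Lysates were separated on sucrose gradients into about 42 fractions of 350 µL. For each library 50 µL per fraction was pooled, from fractions 27 to 34 for early (lighter) polysomes or from fractions 35 to 42 for late (heavier) polysomes. Genotype and fraction make 4 groups of 2 libraries, and by the library names each of the 2 WT and 2 cKO lysates gave an early and a late library. The labels do not say that the lysates came from separate animals, so the p-values below measure the spread between these samples. In WT early replicate 2 the genotype tag is that of cKO, while the title and library name say WT. It is treated as WT here, and held 116 TPM of Mex3a, where the other WT libraries held 93.2 to 97.4 and cKO libraries 11.1 to 19.8.

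Lipocalins fold into a barrel with a pocket for small greasy molecules. Odorant-binding proteins are made by glands of the nasal cavity and secreted into the mucus over the sensory neurons, where they bind odorants and pheromones. The mouse genes lie in a cluster on chromosome 2 and in another on the X chromosome, and both arose by duplication. On a polysome gradient, an mRNA with a short coding sequence has room for few ribosomes.

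On the GRCm38 build, Obp2a lies at chr2:25700043-25703326, Obp2b at chr2:25737009-25740097 and Lcn3 at chr2:25765569-25768099, all on the plus strand. Lcn4 lies further along the chromosome at chr2:26667674-26671282, and Obp1a at chrX:78085505-78091374, both on the minus strand. The longest coding sequences in the GENCODE annotation are 163 codons for Obp1a, 176 for Obp2a and for Obp2b, 187 for Lcn3 and 185 for Lcn4.

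Obp2a and Obp2b are near-copies at one end only, which matters for how reads are assigned to them. Over the whole coding sequence 74.0% of 535 aligned columns were identical. Over the first 120 columns 115 were identical and over the last 120 columns 84. The first stretch spans coding exon 1, which is 87 bases in each gene (chr2:25700091-25700177 in Obp2a, chr2:25737057-25737143 in Obp2b), and the start of coding exon 2. The beginning and the end of the coding sequence are shown 5′ to 3′, with capitals where the other gene has another base or a gap.
Obp2a, start of the coding sequence: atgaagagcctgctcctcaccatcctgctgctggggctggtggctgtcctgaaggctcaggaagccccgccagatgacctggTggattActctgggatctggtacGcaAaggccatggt
Obp2b, start of the coding sequence: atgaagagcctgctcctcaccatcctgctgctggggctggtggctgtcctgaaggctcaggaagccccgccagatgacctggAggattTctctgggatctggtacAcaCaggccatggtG
Obp2a, end of the coding sequence: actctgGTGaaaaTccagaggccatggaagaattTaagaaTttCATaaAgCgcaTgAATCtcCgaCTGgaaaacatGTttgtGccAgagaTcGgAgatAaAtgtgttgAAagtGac
Obp2b, end of the coding sequence: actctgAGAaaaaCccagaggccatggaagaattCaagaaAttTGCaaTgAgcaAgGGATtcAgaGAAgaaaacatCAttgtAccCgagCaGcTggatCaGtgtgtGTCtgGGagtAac
Of the distinct 50-base words of the transcripts, 11.7% in Obp2a and 11.9% in Obp2b also occur in the other gene. In Obp1a 7.2% are shared with its X-linked neighbour Gm5938, and in Lcn3 and Lcn4 none of 635 and 725 words is shared with any other annotated transcript. Most of each member's transcript therefore has letters of its own, while reads from the shared start of Obp2a and Obp2b could be split between both genes by the counting.

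The likeness of Obp2a and Obp2b extends upstream of the gene. RefSeq promoter windows (GRCm38.p6, from 250 bases before to 50 after the start) of this pair matched at 263 of 267 aligned bases, or 98.5%. The stretch from 70 bases before the RefSeq start to 10 bases after the start that RefSeq or GENCODE places further upstream is shown because it holds the TATAAA motif, the letters of a TATA box (in capitals), in 4 of the 5 members.
Obp2a, chr2:25700004-25700052, plus strand: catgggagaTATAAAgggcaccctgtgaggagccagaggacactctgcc
Obp2b, chr2:25736937-25737016, plus strand: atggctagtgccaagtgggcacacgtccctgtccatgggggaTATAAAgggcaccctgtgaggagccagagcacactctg
Lcn3, chr2:25765463-25765542, plus strand: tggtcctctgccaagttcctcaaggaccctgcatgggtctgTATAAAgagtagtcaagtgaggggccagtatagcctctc
Lcn4, chr2:26671273-26671352, minus strand: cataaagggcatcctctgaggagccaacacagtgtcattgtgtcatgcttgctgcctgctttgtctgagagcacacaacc
Obp1a, chrX:78091365-78091444, minus strand: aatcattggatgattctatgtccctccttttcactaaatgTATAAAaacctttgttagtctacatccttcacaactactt
The motif began 28 bases before the RefSeq start in Obp2b, 29 in Lcn3, 30 in Obp1a and 61 in Obp2a, and the Lcn4 window held no match on either strand. RefSeq and GENCODE disagree on some of these starts. From the GENCODE starts the motif was 30 bases away in Obp2a, Obp2b and Obp1a and 65 in Lcn3, so the spacing in Obp2a and Lcn3 depends on the annotation. Of 32851 mouse promoter windows, 13.6% held TATAAA on either strand, 8.3% on the sense strand, and 2.0% on the sense strand between 40 and 16 bases before the start. These matches describe the letters in the windows and no measurement was made of them here.

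Together the 5 genes took between 0.531% and 1.16% of all TPM in a library. TPM is a level per transcript length, so genes can be ranked by it. Obp2a was the highest in each of the 8 libraries, at 4786 and 3937 TPM in the WT early libraries (replicates 1 and 2), at 2552 and 2266 in the WT late, at 3634 and 3613 in the cKO early and at 2247 and 2441 in the cKO late libraries. Early libraries were all above late ones, with no overlap. Obp2b followed, at 4046 and 2919 TPM in the WT early libraries, at 2096 and 1644 in the WT late, at 2971 and 2582 in the cKO early and at 1741 and 1352 in the cKO late libraries. Its early libraries also all lay above its late ones. The ratio of Obp2a to Obp2b was 1.18 to 1.40 in 7 libraries and 1.81 in cKO late replicate 2. That library was the shallowest, yet held 4694 inferred reads of Obp2a and 2668 of Obp2b. The cause of its higher ratio was not tested.

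Lcn3, a lipocalin of nasal and vomeronasal glands, stood at 1543 and 1005 TPM in the WT early libraries, at 928 and 586 in the WT late, at 1258 and 878 in the cKO early and at 812 and 592 in the cKO late libraries. In TPM as deposited, early and late libraries overlapped slightly, because WT late replicate 1 was above cKO early replicate 2. After the scaling used for the tests, these libraries stood at 877 and 934, and all early libraries lay above all late ones. Obp1a, the X-linked member, stood at 1157 and 1156 TPM in the WT early libraries, at 742 and 1181 in the WT late, at 1477 and 1200 in the cKO early and at 1393 and 915 in the cKO late libraries. Its late libraries spread widely and overlapped the early ones. Lcn3 was above Obp1a in WT replicate 1 of both fractions and below it in the other 6 libraries, so the order of these neighbours is not fixed.

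Lcn4, also a gland lipocalin, was far lower than the rest. It stood at 20.5 and 9.68 TPM in the WT early libraries, at 13.4 and 10.4 in the WT late, at 12.8 and 7.36 in the cKO early and at 8.82 and 6.23 in the cKO late libraries. Replicate 1 was the higher of each pair. Early and late libraries overlapped in both genotypes, and WT and cKO overlapped in early but not in late polysomes. These values rest on only 13 to 77 inferred reads per library, against 1092 to 16544 for the other members, so small differences in Lcn4 could not be seen at this depth.

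**Figure D1:**
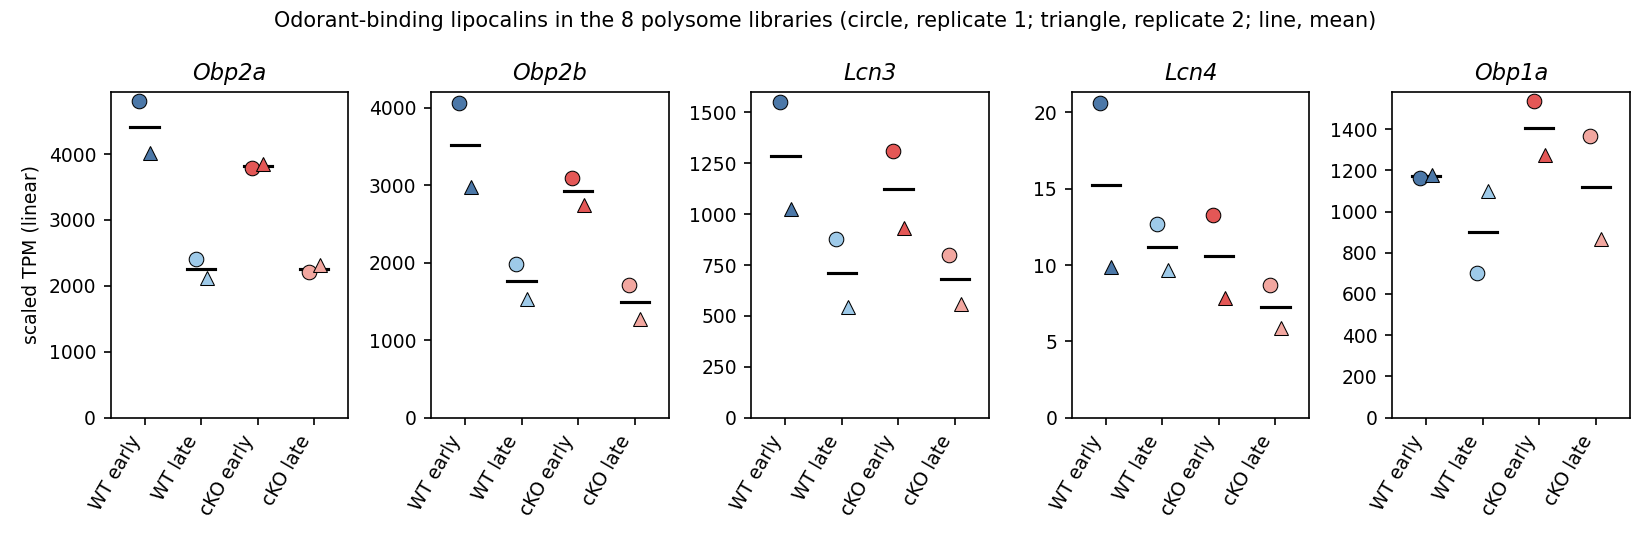
Level of each odorant-binding lipocalin in the 8 libraries, as TPM scaled between libraries by median ratios (linear axes from 0, a separate axis per gene). Circles are replicate 1, triangles replicate 2 and lines the mean of the 2 libraries of a group. The early means of Obp2a, Obp2b and Lcn3 lie above their late means in both genotypes, while the early and late libraries of Obp1a and of Lcn4 overlap.

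The comparison of late with early polysomes asked how the level of each transcript, relative to other mRNAs, differs between heavy and light polysomes. TPM sums to 1000000 in every library, so these levels say nothing of the amount of RNA in each pool. Obp2a, Obp2b and Lcn3 were lower in late than in early polysomes, at 0.552, 0.505 and 0.577 of the early level. Obp1a and Lcn4 had lower late levels too, but their differences did not pass the test. Thus 3 of 5 members were called, all lower, where 68.9% of all genes tested were called and 34.6% were called lower. The share of members called is therefore close to the background, and their direction was common among all genes. After scaling, all 5 members had a lower value in late polysomes in 4 of 4 lysates, as did 37.8% of all genes. In TPM as deposited this held for Obp2a, Obp2b and Lcn3 only, because Obp1a and Lcn4 were slightly higher in the late library of WT replicate 2.

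After scaling, mean Obp2a was 4409 ± 564 TPM in WT early and 2263 ± 212 in WT late libraries (SD, n = 2 each), and 3814 ± 43.1 in cKO early and 2259 ± 73.6 in cKO late libraries. The log2 difference, late minus early over both genotypes, was -0.86 (SE 0.13, adjusted p = 0.000376 by limma). Each lysate gave nearly the same drop, from -0.99 to -0.73. Mean Obp2b was 3519 ± 771 and 1757 ± 316 TPM in WT early and late, and 2920 ± 245 and 1495 ± 305 in cKO early and late (SD, n = 2 each). Its log2 difference was -0.99 (SE 0.16, adjusted p = 0.000739 by limma), with lysates between -1.10 and -0.85. Mean Lcn3 was 1287 ± 372 and 712 ± 234 TPM in WT early and late, and 1122 ± 266 and 679 ± 168 in cKO early and late (SD, n = 2 each). The Lcn3 difference was -0.79 (SE 0.21, adjusted p = 0.00983 by limma), with lysates between -0.91 and -0.71. Although the Lcn3 level varied between lysates of a genotype, the late share of the early level was alike in all 4, at 0.533 to 0.609.

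Obp1a differed by -0.39 log2 (SE 0.19, adjusted p = 0.0939 by limma), and its lysates ranged from -0.73 in WT replicate 1 to -0.10 in WT replicate 2. Lcn4 differed by -0.40 (SE 0.25, adjusted p = 0.182), with lysates from -0.66 to -0.03. With the lysate as a block, which pairs the 2 libraries of a lysate, both passed, at an adjusted p of 0.0495 for Obp1a and 0.0348 for Lcn4, and 5 of 5 members were called, where 68.4% of all genes were called in the same fit. With voom on inferred reads 4 members were called, Obp1a among them (0.0292). Obp1a also passed without WT late replicate 2 (0.0319) or cKO late replicate 1 (0.0246), and Lcn4 without WT early replicate 2 (0.0350).

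Within WT, 3 members were called against 54.8% of all genes. Obp2a fell by 0.96 (SE 0.18, adjusted p = 0.00249 by limma), Obp2b by 1.00 (SE 0.23, adjusted p = 0.00696) and Lcn3 by 0.86 (SE 0.30, adjusted p = 0.0392) on the log2 scale. Without WT late replicate 2 only Obp2a passed there, with Obp2b at an adjusted p of 0.0623 and Lcn3 at 0.251, and Lcn3 also missed without WT early replicate 1 (0.219), with no filter (0.0770), with TPM as deposited (0.0578) and after quantile normalization (0.0916). Within cKO, 2 members were called against 58.1% of all genes, Obp2a at -0.76 (SE 0.18, adjusted p = 0.00671) and Obp2b at -0.98 (SE 0.23, adjusted p = 0.00682). Lcn3 was at -0.72 there (SE 0.30, adjusted p = 0.0686) and passed with the lysate block (0.00471). Obp2b missed without cKO late replicate 2 (0.0518), and Obp2a missed after quantile normalization, at -0.33 (0.214). The difference between the genotypes in this effect was tested as an interaction and is given with the genotype results.

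Short coding sequences make a useful yardstick here. Of the genes tested, 849 encode 150 to 200 residues, and their median late minus early difference was -0.88, with quartiles at -1.12 and -0.58, whereas the median of all genes tested was -0.01. Obp2a, Obp2b and Lcn3 lay inside that middle range: 52.4% of the 849 genes had a lower value than Obp2a, 38.9% a lower value than Obp2b and 58.4% a lower value than Lcn3. The estimates for Obp1a and Lcn4 were higher than those of most genes of their length, with 84.9% and 84.1% of the 849 genes below them. The limma interval of Lcn4, from -0.97 to 0.17, included the median of -0.88, so Lcn4 was not set apart from these genes. The interval of Obp1a, from -0.81 to 0.04, left out the median but included the upper quartile of -0.58. So the called members sat near the middle of genes of like coding length, as a description and without a test.

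Other lipocalins were set beside them from a list of 53 symbols, of which 22 are in the table and 12 passed the filter. Late against early, 7 of 12 were called, 5 lower and 2 higher. Of all genes tested, 68.9% were called and 34.6% were called lower, so these counts are close to the background. The lower ones were Lcn11 at -1.07, Mup4 at -0.67 and Mup5 at -0.77, the latter pair major urinary proteins, with the retinol carrier Rbp4 at -1.28 and the complement subunit C8g at -0.72. The Mup5 call was lost after quantile normalization (-0.55, adjusted p = 0.0530). The higher ones were Apod, apolipoprotein D, at 0.92 and Ptgds, the lipocalin-type prostaglandin D synthase, at 1.00. Apod and Ptgds each encode 189 residues, close to Lcn3 at 187 and Lcn4 at 185, and yet 99.8% and 99.9% of the genes of 150 to 200 residues had lower values. The median was -0.79 over the 5 members and -0.45 over the 12 other lipocalins.

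**Figure D2:**
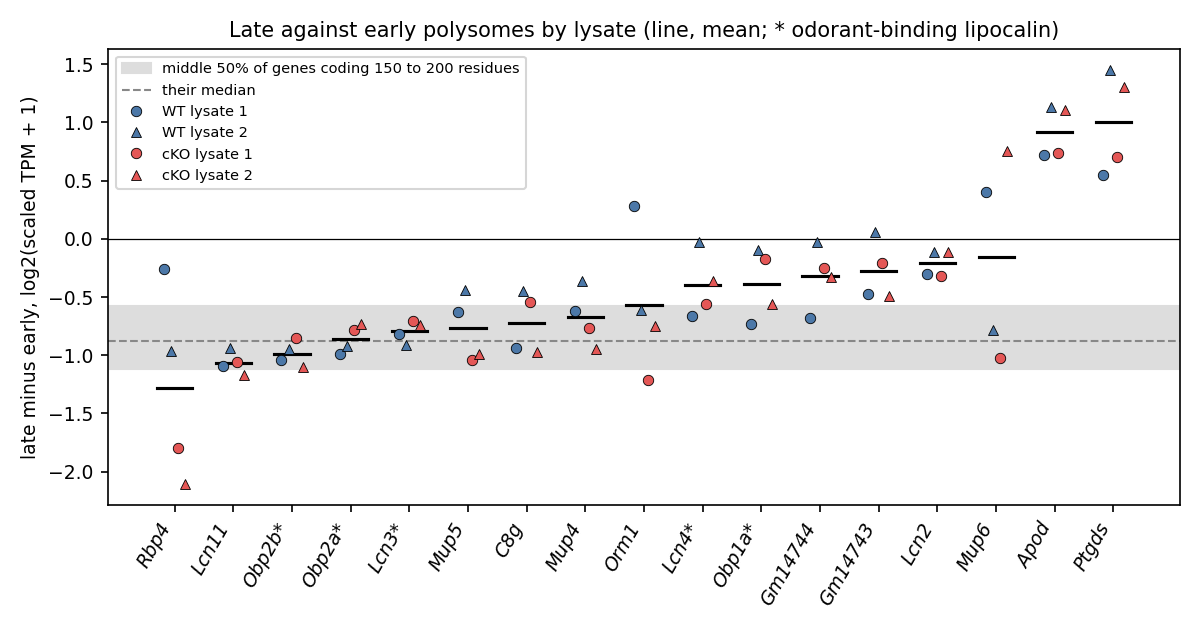
Late minus early difference in log2(scaled TPM + 1) for the 17 lipocalins tested, by lysate (blue, WT; red, cKO; circles, replicate 1; triangles, replicate 2; lines, means; asterisks mark the odorant-binding lipocalins). The grey band and dashed line give the quartiles (-1.12 and -0.58) and the median (-0.88) of 849 genes encoding 150 to 200 residues; Obp2a, Obp2b and Lcn3 lie within the band and Apod and Ptgds lie above 0.

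The comparison of cKO with WT asked whether polysome-bound transcripts change when Mex3a is lost. No member passed the test. On lysate means (the average of the early and late log2 values of each lysate), 0 of 5 members were called by limma at an adjusted p under 0.05, where 0.00621% of all genes were called and 1823 genes had an unadjusted p under 0.05. None of the 5 members had an unadjusted p under 0.05. With voom, run on inferred reads summed over both fractions of each lysate, 0 were called too. Mex3a itself fell by 2.67 log2 on lysate means (adjusted p = 0.0227, and 0.000119 to 0.165 over the alternatives, where the call is lost with no filter on low values).

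Obp2a differed by -0.10 log2, cKO minus WT, with a 95% interval from -0.42 to 0.22 (adjusted p = 0.794 by limma). Obp2b differed by -0.25, with an interval from -0.68 to 0.19 (adjusted p = 0.628). Lcn3 differed by -0.12, from -0.73 to 0.49 (adjusted p = 0.879). For each of these 3 genes the WT and cKO lysates were interleaved. Lcn4 was at -0.51, from -1.19 to 0.18 (adjusted p = 0.535), and Obp1a at 0.28, from -0.17 to 0.74 (adjusted p = 0.594). The interval was narrowest for Obp2a and widest for Lcn4. Leaving out 1 lysate at a time moved Lcn4 between -0.85 (without WT replicate 2) and -0.17 (without WT replicate 1), Obp2b between -0.45 and -0.04 (the same lysates), and Obp1a between 0.05 (without cKO replicate 1) and 0.52 (without cKO replicate 2), and none passed.

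In early polysomes alone the members lay between -0.45 (Lcn4) and 0.26 (Obp1a) and 0 of 5 were called, against 0.0435% of all genes, with 1071 genes at an unadjusted p under 0.05. In late polysomes they lay between -0.57 (Lcn4) and 0.31 (Obp1a) and 0 of 5 were called, against 0.0124% of all genes, with 1506 at an unadjusted p under 0.05. By voom 0 members were called in either fraction. The WT and cKO libraries did not overlap for 2 of 5 members in early polysomes (Obp1a higher and Obp2a lower in cKO), against 37.1% of all genes, and for 1 of 5 in late polysomes (Lcn4, lower), against 40.7%. The interaction of genotype and fraction was between -0.12 (Lcn4) and 0.20 (Obp2a) and called 0 members, against 0.00621% of all genes and 459 at an unadjusted p under 0.05. For Obp2a its interval ran from -0.37 to 0.78 and for Obp2b from -0.73 to 0.77, so the late-to-early difference was not shown to differ between genotypes.

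Lcn11 and Gm14744, neighbours of the members in the gene clusters, were higher in cKO libraries, though neither passed the main test. Lcn11 lies at chr2:25777017-25780279, the next lipocalin after Lcn3 in the annotation used. It stood at 1614 and 1485 TPM in the WT early libraries, at 807 and 845 in the WT late, at 2921 and 2852 in the cKO early and at 1479 and 1423 in the cKO late libraries. Groups did not overlap for 37.1% of all genes in early and 40.7% in late polysomes. For Lcn11, both cKO libraries lay far above both WT libraries in each fraction. The lysate-mean difference was 0.90 (SE 0.09, adjusted p = 0.126 by limma). It passed with the replicate number as a block (0.0160) and with voom on inferred reads summed over both fractions of a lysate (0.00193). The block pairs WT and cKO lysates by a number that no label ties to a batch. It leaves little to estimate the spread from, and 85 genes were called with it. The ratio of Lcn11 to Lcn3 within a library was 0.869 to 1.48 in WT and 1.82 to 3.25 in cKO, with no overlap. The share of other gene pairs without overlap was not counted. Neither Lcn11 nor Lcn3 shares a 50-base word with another annotated gene.

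Gm14744, an odorant-binding protein-like gene of the X-linked cluster at chrX:77864758-77870033, showed the same order. It stood at 4281 and 2986 TPM in the WT early libraries, at 2836 and 3196 in the WT late, at 6682 and 5855 in the cKO early and at 5950 and 5222 in the cKO late libraries. Every cKO library was above every WT library. Within a fraction, groups did not overlap for 37.1% of all genes in early and 40.7% in late polysomes. The share with this order in all 8 libraries was not counted. The lysate-mean difference of Gm14744 was 0.90 (SE 0.15, adjusted p = 0.233 by limma). It passed with the replicate block (0.0317), under the pairing limit given for Lcn11, and with voom on summed reads (0.0180). The Gm14744 value is uncertain, because 72.7% of its 50-base words also occur in 5430402E10Rik or Gm14750. 5430402E10Rik, looked up after these values were seen, differed by 0.53 (adjusted p = 0.383).

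Mup4, a major urinary protein that carries pheromones, had the largest value among the 17 lipocalins tested. It stood at 170 and 155 TPM in the WT early libraries, at 118 and 132 in the WT late, at 492 and 720 in the cKO early and at 305 and 420 in the cKO late libraries. The groups did not overlap in either fraction, as held for 37.1% of all genes in early and 40.7% in late polysomes. On lysate means the difference was 1.74 (SE 0.16, adjusted p = 0.126 by limma). Mup4 passed with the replicate block (0.0145), under the pairing limit given for Lcn11, and with voom on summed reads (0.00304). In early polysomes it rose by 1.92 (SE 0.20, adjusted p = 0.0321) and was the 1 call among 12 other lipocalins, a call lost without either WT early replicate, either WT late replicate or cKO early replicate 2 (adjusted p from 0.0585 to 0.339), and with no filter on low values (0.0559). Mup5 differed by -0.16 on lysate means and Gm14743, an X-linked relative of Obp1a, by 0.27 (adjusted p = 0.833 and 0.669). Mup4 shares 12.4% of its words with other Mup genes and Gm14743 shares 77.5% with Obp1b, which has no row.

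Mup6, another urinary protein, was at 0.95 (adjusted p = 0.402 by limma) on 1 to 10 inferred reads per library, and the plasma carrier Orm1 at 0.73 (adjusted p = 0.402) on 2 to 16. Lcn2, Apod, Ptgds, C8g and Rbp4 lay between -0.09 and 0.15. Over the 12 other lipocalins the lysate-mean values were above 0 in 8, with a median of 0.21. Over the 5 members 1 of 5 was above 0, with a median of -0.12. These lists were read side by side without a test between them.

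**Figure D3:**
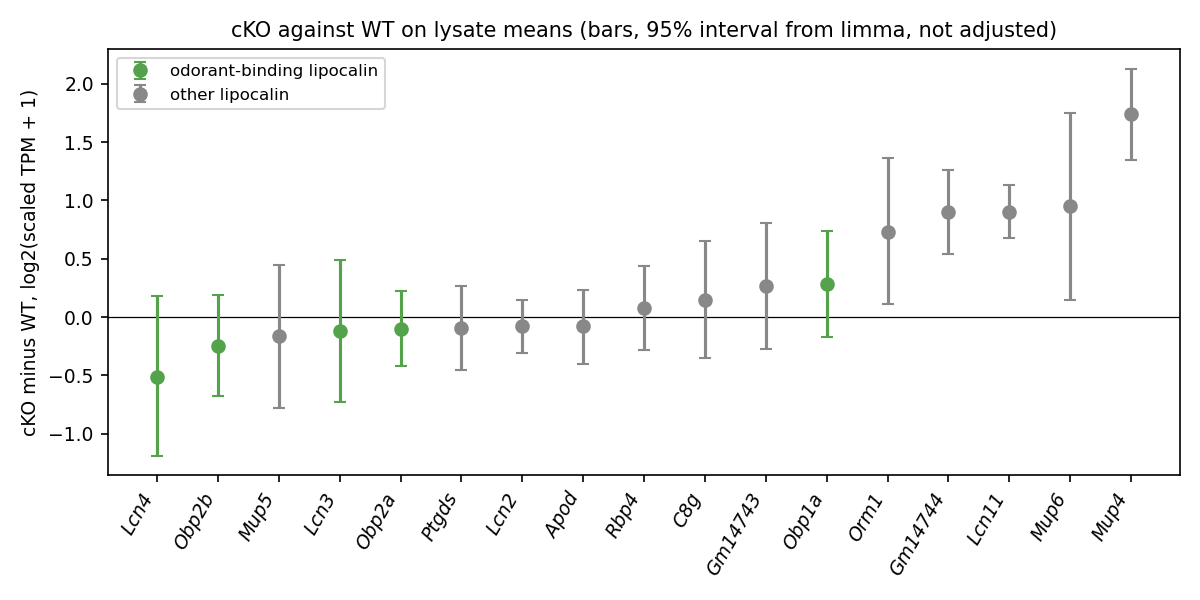
Difference between cKO and WT on lysate means for the 17 lipocalins tested, in log2(scaled TPM + 1), with the 95% interval of the limma fit (not adjusted; 2 WT and 2 cKO lysates). The intervals of all 5 odorant-binding lipocalins (green) include 0, while Lcn11 and Gm14744 (both 0.90) and Mup4 (1.74) lie to the right, beside Mup6 and Orm1, which rest on at most 16 reads in a library.

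For Lcn3, Lcn4 and Obp2b the replicate 1 lysate was above the replicate 2 lysate in both WT and cKO. Lcn3 was higher in replicate 1 than in replicate 2 by 0.60 log2 in WT early, 0.68 in WT late, 0.49 in cKO early and 0.51 in cKO late. This gap was 1.40-fold to 1.61-fold. Lcn4 was higher in replicate 1 by 0.99, 0.36, 0.69 and 0.49 in the same order, and Obp2b by 0.45, 0.37, 0.17 and 0.42. In all, 3 of 5 members were higher in replicate 1 in 4 of 4 groups, against 12% of all genes. Obp2a did not share the pattern, at 0.26, 0.19, -0.02 and -0.07, nor did Obp1a, at -0.02, -0.65, 0.27 and 0.66. The labels do not tie a replicate number to a batch or day. Among nasal gland genes 8 of 22 were higher in replicate 1 in 4 of 4 groups and 1 was lower in all 4. The counts were 4 and 0 of 10 for sustentacular (supporting) cell genes, 0 and 0 of 9 for mature olfactory neuron genes, and 1 and 0 of 12 for the other lipocalins. Of the gland genes, Bpifb9b stood at 6342 and 2912 scaled TPM in WT early replicates 1 and 2 and Dcpp1 the other way, at 52.1 and 88.7, both chosen after their values were seen. In bulk tissue more gland cells and more of these mRNAs per cell cannot be told apart, and the part of gland content in the members' replicate differences was not tested.

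**Figure D4:**
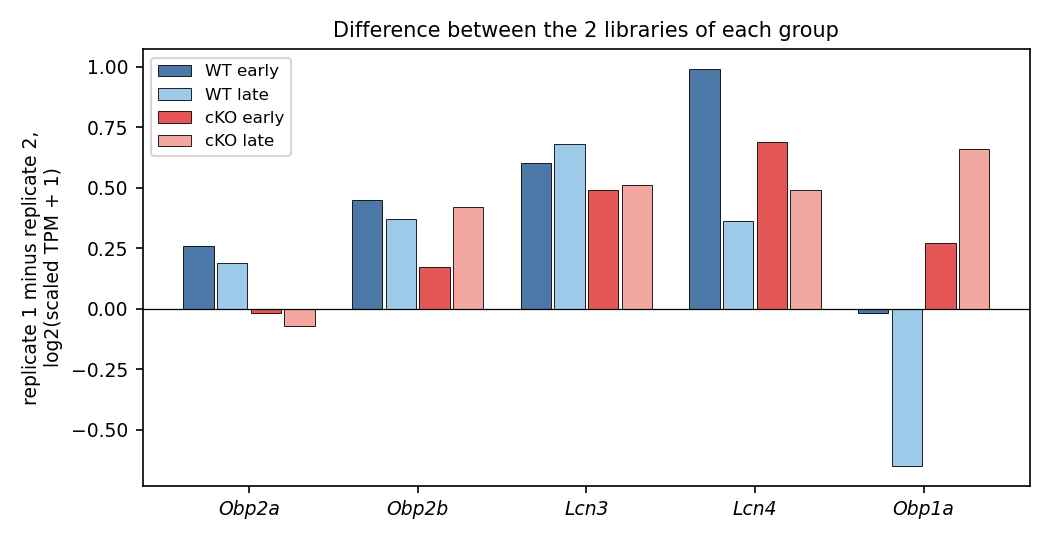
Replicate 1 minus replicate 2 in log2(scaled TPM + 1) for each odorant-binding lipocalin within each of the 4 groups (bars start at 0). Lcn3, Lcn4 and Obp2b are above 0 in 4 of 4 groups, Lcn3 by 0.49 to 0.68, and Obp1a changes sign between WT and cKO.

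The members did not all vary alike across the 8 libraries. Pearson correlations of log2 levels, given as descriptions over libraries that share lysates, were 0.952 for Obp2a with Obp2b and 0.951 for Obp2b with Lcn3. All correlations given here include the difference between late and early libraries. Obp1a correlated at 0.434 with Obp2a and at 0.956 with its X-linked relative Gm14743. Lcn4, on few reads, correlated at 0.788 with Lcn3 and at 0.115 with Obp1a. Among 12811 other genes with a mean of at least 5 TPM, the patterns most like Obp2a were those of Pllp (0.994), Fam229b (0.991) and Cisd3 (0.990). The most like Obp2b were Chmp1b (0.993), Tnnt1 (0.991) and 2610005L07Rik (0.985), and the most like Lcn3 were BC051226 (0.984), 2900097C17Rik (0.981) and Firre (0.978). For Obp1a they were Mob3a (0.969), Gm14743 and Tm7sf2 (0.951), and for Lcn4 Cspp1 (0.928), Sncb (0.926) and Pnisr (0.924).

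The tissue label was checked against marker genes. Omp, the marker of mature olfactory neurons, was at 2309 to 5494 scaled TPM. The 24 nasal gland genes of a list, 23 of them above 0 in at least 1 library, summed to 17256 to 22199 scaled TPM in WT early, 26847 to 31126 in WT late, 21440 to 25374 in cKO early and 34773 to 38973 in cKO late. The gland sum was thus higher in late than in early polysomes, opposite to the members. It was higher in cKO than in WT late libraries, while the early sums of WT and cKO overlapped. A few abundant genes weigh heavily in this sum, and they differ in direction. Bpifb9b stood at 2912 to 6677 scaled TPM in early and 7835 to 14641 in late libraries. Scgb1c1 went the other way, as the members did, at 5429 to 8233 in early and 2031 to 3159 in late libraries. Of the 22 gland genes tested, 14 were called higher and 6 lower in late polysomes, where 68.9% of all genes were called in either direction. Between genotypes on lysate means 0 were called, against 0.00621% of all genes, with a median of 0.20. Of 7 vomeronasal neuron genes, the receptors Vmn2r1, Vmn1r4 and Vmn2r26 were at most 0.490, 0.542 and 0.499 scaled TPM, and Trpc2 has no row. Calr4 was at 4.33 to 7.52, and the G-protein genes Gnai2 and Gnao1, which are not restricted to those neurons, were at 229 to 544 and 126 to 169. The list summed to 404 to 695. Of 7 club or goblet cell genes, Scgb1a1 was at most 0.885, while Agr2 was at 326 to 463, Tff2 at 24 to 96.8 and Scgb3a1 at 12.6 to 42.2, and the list summed to 392 to 628. The liver gene Alb was at most 2.23, and Ttr reached 14.7 and 10.9 in the early and late libraries of cKO replicate 2. Their part in the members' values was not tested.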

How the data were processed

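RNA from early and late polysome pools was measured in 8 libraries, and groups were taken from the sample titles. The authors deposited a table of TPM per gene symbol, and the submitters' processing notes name FastQC, cutadapt, STAR, DESeq2 and the mm10 build without their roles. The counting tool and annotation are not given in the sources used here, and the Cre line is not reported here. Median-ratio factors of 0.9399 to 1.072 scaled the TPM, and log2(scaled TPM + 1) of the 16097 genes with a mean TPM of at least 1 was fitted over 4 groups with limma 3.58.1 (R 4.3.3, trend, two-sided, Benjamini-Hochberg over all genes, threshold 0.05). Fold changes on this scale understate the change of low genes. Genotype was also tested on lysate means. Values were whole multiples of a step for 100% of 19783 genes (tolerance 0.001), which gave 7776792 to 12771079 inferred reads per library. On simulated libraries 99.53% of 16072 genes came back exactly. On lysate means 199 of 200 genes changed 3-fold were recovered among 15958 genes, with 47 false calls, a larger share than the 0.05 threshold aims at. The simulated libraries were drawn independently, with the same spread setting for all genes and no lysate effect. They therefore do not measure the power of the test on these data. Coding lengths came from GENCODE on GRCm38 in place of a protein table, and positions likewise; promoters came from RefSeq. Python 3.11.15, Biopython 1.88 and matplotlib 3.10.9 were used.

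By the library names, both fractions of a genotype and number come from 1 lysate, and their deviations from group means correlated at 0.0863 in WT and 0.0502 in cKO. Same-numbered WT and cKO libraries correlated at 0.332 in early and 0.143 in late polysomes. Alternatives were a pseudocount of 0.1, no filter, TPM as deposited, quantile normalization, a replicate block, voom on inferred reads, and leaving out each library. Named were all members, the other lipocalins past the filter, Mex3a, markers, and the 3 genes most like each member; others are marked as chosen later. Members and lists were chosen with earlier results of these data known.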

Additional observations from a re-analysis of the deposited data

Results flagged for a closer look

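Rbp4, a retinol-binding lipocalin, had a genotype difference of opposite direction in the 2 fractions. The early libraries held 7 and 7.22 TPM for WT and 11.3 and 13.0 for cKO, and the late libraries 6.02 and 3.53 for WT and 2.74 and 2.57 for cKO. Over all genes, groups without overlap, higher or lower, made up 37.1% in early and 40.7% in late polysomes. The share with opposite directions was not counted. For Rbp4, both cKO libraries were above both WT libraries in early polysomes and below them in late polysomes. The log2 difference, cKO minus WT, was 0.75 in early and -0.59 in late polysomes. The interaction was -1.34 (SE 0.32, unadjusted p = 0.00254, adjusted p = 1.0 by limma), so the difference did not pass the correction. It rested on 9 to 74 inferred reads per library.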

How the results depend on the processing

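Of 896 alternative values, 796 were labelled the same. For a log2 value this means the same direction and side of the threshold. A count of calls had to stay within a set ratio of the main count, so it could still change. Some alternative values could not move: leaving out a cKO library left the values within WT as they were, and the reverse. Late against early, 209 of 210 alternative member values were negative, such unmoved values included. The count of members called there moved from 3 to 5 with the replicate block (lysate), and leaving out a library gave 3 to 4. It was 1 to 3 within WT and 1 to 2 within cKO when a library was left out, and 1 within cKO after quantile normalization, where Obp2a was at -0.33 (adjusted p = 0.214). Within WT, Lcn3 missed the threshold with no filter (0.0770), with TPM as deposited (0.0578) and after quantile normalization (0.0916). Lcn4 within WT ranged from -0.84 to 0.15 when a library was left out. No member was called between genotypes under any alternative run, the replicate block included. Values near 0 changed sign: Obp2a in late polysomes was -0.04 with TPM as deposited and -0.06 after quantile normalization. Leaving out a library or lysate gave -0.21 to 0.01 for Obp2a and -0.44 to 0.20 for Lcn3 on lysate means. It gave -0.49 to 0.11 for Lcn3 and -0.94 to 0.05 for Lcn4 in early polysomes. In late polysomes it gave -0.02 to 0.64 for Obp1a, -0.10 to 0.10 for Obp2a and -0.39 to 0.29 for Lcn3. The causes were not tested. Over all genes, calls on lysate means went from 1 to 85 with the replicate block, 58 with voom and 0 with no filter (1 to 10 without a lysate). Early calls went from 7 to 11 with no filter and 20 with voom (0 to 9 without a library), and late calls from 2 to 1 with a pseudocount of 0.1, 4 with no filter and 15 with voom (0 to 13). Interaction calls went from 1 to 6 with no filter and 0 with voom (1 to 7). Where a group was left with 1 library, it was assumed to vary like the others. With 2 libraries per group and 13 to 77 reads, Lcn4 is the least certain member.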
